A study of Mus musculus with 18 samples.

Results

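Ly6g6e, Medag and Dusp22 were the 3 genes, of 14664 tested, with the smallest p-values when the change in expression after partial thyroidectomy was compared between central and peripheral mouse thyroid. They were chosen on that difference, so every value of theirs below is a description and carries no p-value. On average Ly6g6e and Dusp22 were lower in the central area and higher in the peripheral area after surgery, and Medag was the reverse. For Dusp22 the central change was small (-0.27 on the log2 scale, SE 0.14), and its central groups overlapped. No gene passed the limma threshold for the difference between the areas (adjusted p under 0.05, 0 of 14664, 0%), and the smallest adjusted p among genes other than these 3 was 0.790.

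The study captured thyroid regions of male C57BL/6 mice by laser from frozen sections and measured gene expression on 18 two-colour arrays. Of the central regions 5 were normal (no surgery) and 5 dissected (after partial thyroidectomy), and of the peripheral regions 3 were normal and 5 dissected. The tissue RNA was amplified and labelled with Cy5, and a common reference RNA of assorted Swiss Webster mouse tissues was labelled with Cy3 on every array, with no dye swap. Neither the mouse of each region nor the interval since surgery is in the labels. Where regions of one group share a mouse, p-values over arrays are too small, and no block for the mouse could be fitted.

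The thyroid is built of follicles whose epithelial cells, the thyrocytes, make thyroid hormone from thyroglobulin, and its central part also holds the calcitonin-producing C cells. Ly6g6e encodes a member of the Ly6 and uPAR family, small cysteine-rich proteins that are mostly anchored to the cell surface by a lipid, and its gene lies in the class III region of the major histocompatibility complex. Medag (mesenteric estrogen-dependent adipogenesis) encodes a protein that promotes fat cell differentiation, and Dusp22 encodes a small dual-specificity phosphatase that acts on the c-Jun N-terminal kinase (JNK) pathway and in T cell signalling.

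Each gene had 2 probes of 60 bases, 6 of the 41174 gene probes on the array. Of these 6, 4 passed the filter on dim probes, and the brighter kept probe was used for the gene. Positions are those in the files, on the mouse build mm7, without a strand. The exon or untranslated region under each probe was not determined here, so the first 30 bases of each are shown, to identify what the values below measure.
Ly6g6e, main probe, chr17:33175709-33175768: tacccgagggtctcaagaacagagggctac
Ly6g6e, other probe, chr17:33175133-33175192: ctcttttgtcccacagagcaaaaggaggag
Medag, main probe, chr5:148364024-148364083: cctgcatcattgcacatgtaaatttgcacc
Medag, other probe, chr5:148363276-148363335: ctctgtggcatagggtgtcattgacattga
Dusp22, main probe, chr13:30076451-30076510: atgttaagatctatggatattctgtagcaa
Dusp22, other probe, chr13:30061803-30071202: tccagcggcagacacaccatctcaaaacct
The probes of a gene start 576 bases apart for Ly6g6e, 748 for Medag and 14648 for Dusp22, and the 2 probes of a gene have no stretch of 20 bases in common. The other Dusp22 probe spans 9400 bases of the genome, so it is not one contiguous stretch there. The files describe the other Ly6g6e probe as one for a splice variant, and they list Medag under its older name 6330406I15Rik.

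The main probes differed in how far they stood above background. Ly6g6e was well above background in Cy5 on 18 of 18 arrays, at mean spot intensities of 158 to 2546. Dusp22 was well above background on 17 of 18 arrays, at 91 to 808, the exception being normal peripheral 1. Medag was well above background on 8 of 18 arrays, at 64 to 319: 1 normal central, 2 normal peripheral, 4 dissected central and 1 dissected peripheral array. Levels of Medag therefore lie near the detection limit in every group.

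**Figure D1:**
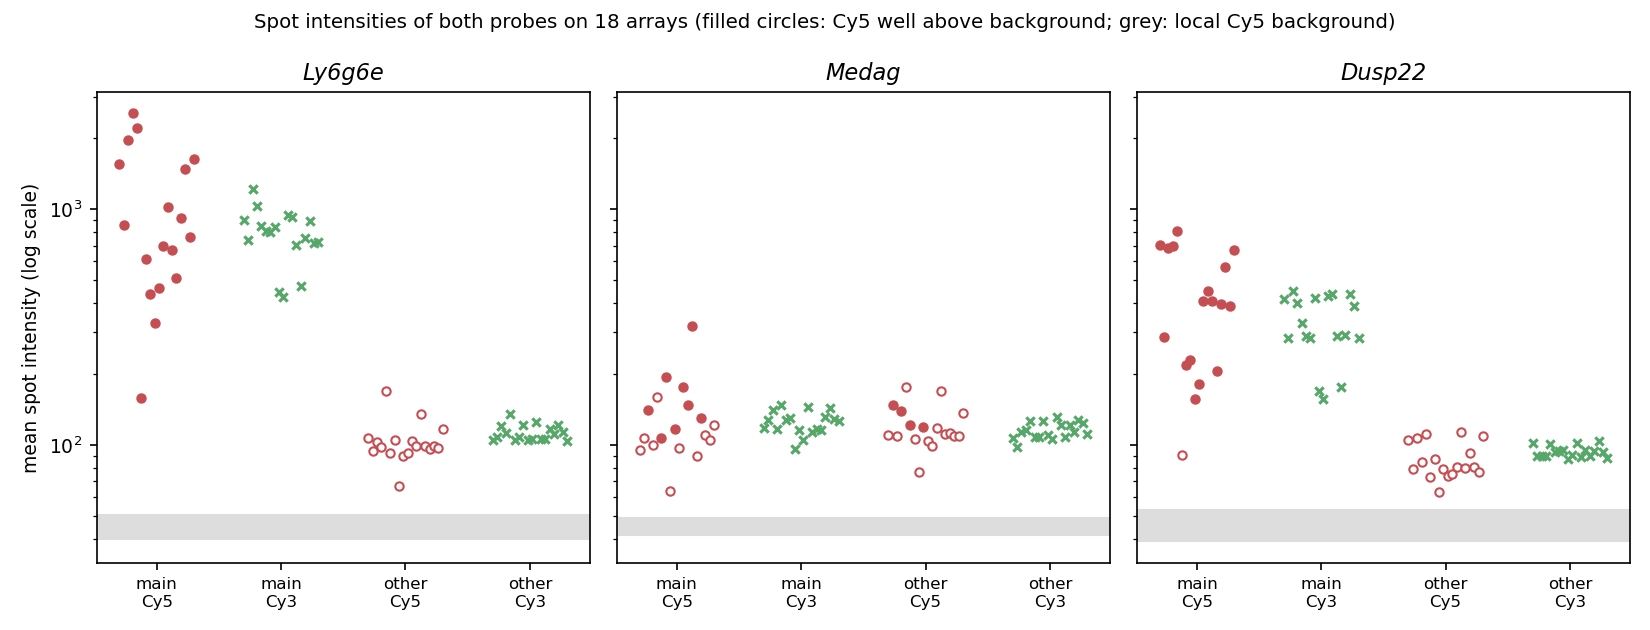
Mean spot intensity (log scale) of the main and the other probe of each gene in Cy5 (tissue, circles) and Cy3 (reference, crosses) on 18 arrays, with the range of the local Cy5 background in grey; filled circles were well above background. The main probe of Ly6g6e is filled on 18 of 18 arrays and that of Medag on 8, while the other probes of Ly6g6e and Dusp22 are filled on none.

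The 4 arrays with the fewest probes well above background were normal peripheral 1, dissected central 1, dissected central 2 and dissected peripheral 1 (24.7% to 29.5% of probes, against 35.2% to 44.0% on the other 14). The arrays lay on 5 slides, each group always at the same position of a slide, so position and group cannot be told apart. Thyroglobulin and thyroid peroxidase, defining thyrocyte genes, were well above background on 18 of 18 arrays. Of the 12 lists of cell type markers, 64 of 86 genes were measured and none passed the threshold for the change after dissection in either area or for the difference between them. In captured tissue, fewer cells of a type and less RNA per cell cannot be told apart.

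The log2 ratio of Ly6g6e, tissue over reference, was 0.21, 0.11, 0.26, 0.78 and 0.48 on the normal central arrays and -0.23, 0.24, -0.40, -0.11 and -0.94 on the dissected central arrays. In the peripheral area it was -0.55, -0.49 and -0.52 on the normal and 0.12, -0.052, 0.57, -0.019 and 0.073 on the dissected arrays. The normal peripheral log2 ratios were nearly alike and lay below all normal central and all dissected peripheral arrays, while the central groups overlapped through dissected central 2. Before normalization the Cy5 spot intensities of the normal peripheral arrays ran from 158 to 615. The lowest was on normal peripheral 1, an array with few probes well above background. From Cy5 alone the SD of this group was 0.17.

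The group means of Ly6g6e were 0.37 ± 0.27 (SD, n = 5) in normal central, -0.52 ± 0.026 (n = 3) in normal peripheral, -0.29 ± 0.43 (n = 5) in dissected central and 0.14 ± 0.25 (n = 5) in dissected peripheral thyroid. In the order normal central, dissected peripheral, dissected central, normal peripheral, each group overlapped its neighbours. On the log2 scale the central change after dissection was -0.66 (SE 0.19) and the peripheral change 0.66 (SE 0.22). The central change minus the peripheral change was -1.32 (SE 0.29), a ratio of 2.49 between the areas. Thus in normal thyroid Ly6g6e was 0.89 (SE 0.22) higher in the central than in the peripheral area, and after dissection it was 0.43 lower (difference -0.43, SE 0.19). With each array centred on its median in place of loess normalization, the difference of changes was -2.06, in a setting that moved the median of all genes from -0.018 to -0.40.

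Medag had the opposite pattern. Its log2 ratio was -0.37, -0.16, -0.097, -0.079 and -0.31 on the normal central arrays and 0.28, 0.11, 0.52, 0.36 and 1.01 on the dissected central arrays. It was 0.093, 0.68 and -0.005 on the normal peripheral and -0.25, 0.084, -0.42, -0.22 and -0.48 on the dissected peripheral arrays. Every dissected central array lay above every normal central and every dissected peripheral array, whereas the peripheral groups overlapped through dissected peripheral 2. The dissected groups were separated narrowly, by 0.11 on dissected central 2 against 0.084 on dissected peripheral 2. On dissected central 2 the spot of Medag was not well above background.

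Mean levels of Medag were 0.46 ± 0.34 (SD, n = 5) in dissected central, 0.26 ± 0.37 (n = 3) in normal peripheral, -0.20 ± 0.13 (n = 5) in normal central and -0.26 ± 0.22 (n = 5) in dissected peripheral thyroid. The upper pair overlapped and so did the lower pair, and each normal peripheral array lay above each normal central array. The central change was 0.66 (SE 0.17) and the peripheral change -0.51 (SE 0.20). Their difference was 1.17 (SE 0.26), a ratio of 2.26. It was 4.68 from the scanner program's processed intensities, which are background-subtracted with no offset, and 4.56 in the authors' deposited value table. Over the mean of both probes, which includes the main probe, it was 0.68.

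Dusp22 resembled Ly6g6e. Its log2 ratio was 0.26, -0.042, 0.26, 0.43 and 0.64 on the normal central arrays and 0.085, 0.44, 0.016, -0.12 and -0.23 on the dissected central arrays. It was -0.38, -0.49 and -0.42 on the normal peripheral and 0.30, 0.22, 0.34, -0.008 and 0.30 on the dissected peripheral arrays. All 3 normal peripheral arrays lay below all 15 others, and the central groups overlapped on most arrays.

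Mean levels of Dusp22 were 0.31 ± 0.25 (SD, n = 5) in normal central, 0.23 ± 0.14 (n = 5) in dissected peripheral, 0.038 ± 0.25 (n = 5) in dissected central and -0.43 ± 0.059 (n = 3) in normal peripheral thyroid. Neighbours in this order overlapped except the last pair. The central change was -0.27 (SE 0.14) and the peripheral change 0.66 (SE 0.16), and the difference of changes was -0.93 (SE 0.21), a ratio of 1.90. For Dusp22 the change was thus larger in size in the peripheral area. The difference of changes was -2.21 from processed intensities, -2.25 in the authors' deposited value table, -1.39 with median centring and -1.39 from Cy5 alone. These values include normal peripheral 1, where Dusp22 was not well above background. Its linear ratio in the deposited table was 0.0626 there, against 0.558 and 0.646 on the other normal peripheral arrays. From Cy5 alone the SD of the normal peripheral arrays was 0.94.

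**Figure D2:**
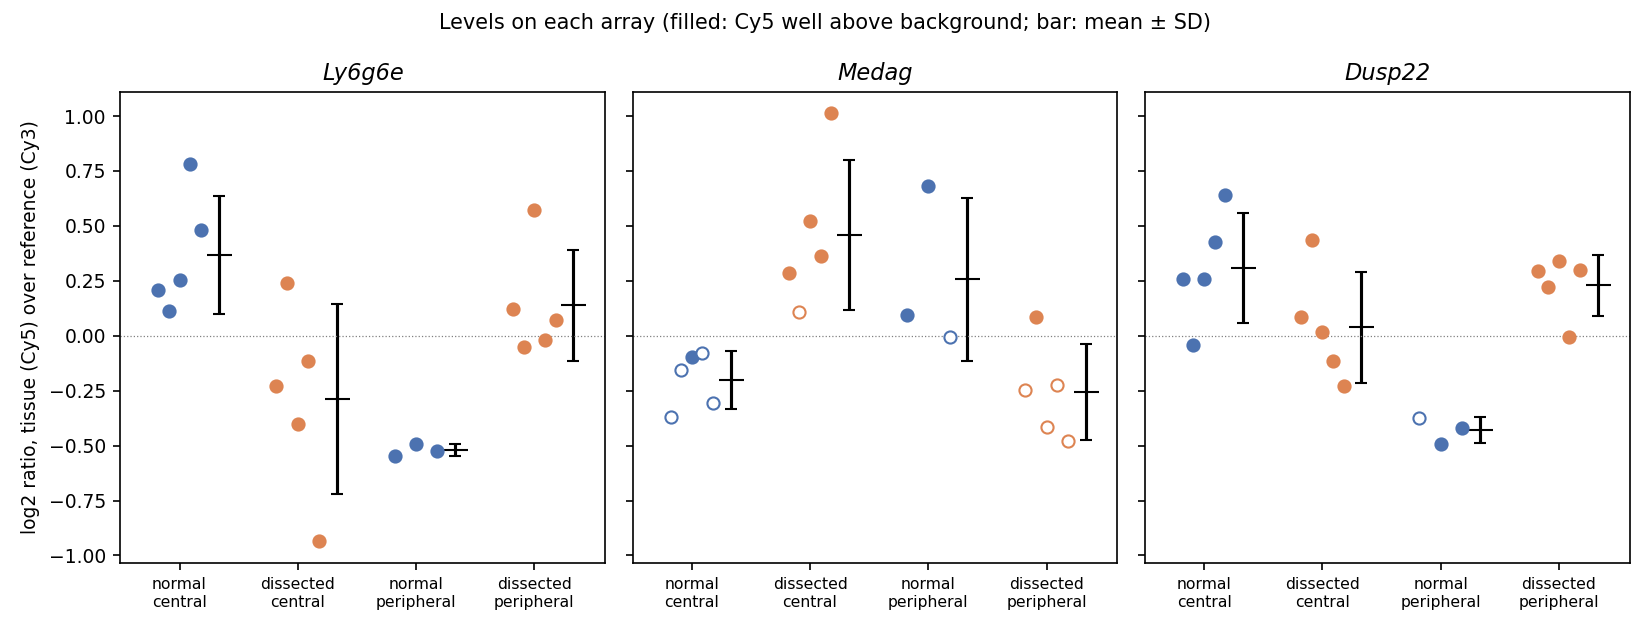
Log2 ratio of tissue (Cy5) over reference (Cy3) of Ly6g6e, Medag and Dusp22 on each of 18 arrays by group (blue normal, orange dissected), with the mean ± SD beside the points; open circles were not well above background in Cy5. The normal peripheral arrays are the lowest group for Ly6g6e (mean -0.52) and Dusp22 (mean -0.43), and the dissected central arrays are the highest for Medag (mean 0.46).

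Arrays without overlap between groups were uncommon over all genes. In the peripheral area 317 genes (2.16%) were higher on every dissected than on every normal array, among them Ly6g6e and Dusp22, and 300 (2.05%) were lower, none of the 3. In the central area 63 genes (0.430%) were higher on every dissected array, among them Medag, and 84 (0.573%) were lower, none of the 3. In normal thyroid 524 genes (3.57%) were higher on every central array, as Ly6g6e and Dusp22 were, and 188 (1.28%) were lower, as Medag was. In dissected thyroid 177 genes (1.21%) were higher on every central than on every peripheral array, Medag included, and 68 (0.464%) were lower, none of the 3. Between dissected central and normal peripheral arrays 252 genes (1.72%) were higher in the former, Dusp22 included, and 202 (1.38%) lower, none of the 3. Groups with fewer arrays separate more easily, and the normal peripheral group had the fewest, so shares that involve it cannot be compared with the others. The 3 genes were chosen on the same arrays, so these shares give the background only.

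Opposite signs in the areas were common. The central and the peripheral change had opposite signs in 7482 genes (51.0%), and both changes were at least 0.5 in size in 55 (0.375%), a group that holds Ly6g6e and Medag but not Dusp22. A difference of changes at least as large as that of Ly6g6e was measured in 70 genes (0.477%), of Medag in 126 (0.859%) and of Dusp22 in 383 (2.61%), themselves included. Unadjusted p-values under 0.05 were found for 853 genes (5.82%) in the difference, 768 (5.24%) in the central change and 1224 (8.35%) in the peripheral change. With limma, 0 genes (0%) passed an adjusted p of 0.05 in the central change and 0 (0%) in the peripheral change.

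The genes that followed in rank had differences of similar size. Cul5, the scaffold of a ubiquitin ligase, had -1.13 (SE 0.27), Tbc1d9 -0.71 (SE 0.17) and Plekhh3 1.03 (SE 0.25). Nupr1l had -1.10 (SE 0.28) and Coa8, a mitochondrial protein linked to cytochrome c oxidase, -0.74 (SE 0.19). All 5 had a limma adjusted p of 0.79. All 5 had opposite signs in the areas, though in Nupr1l the central change was -1.07 and the peripheral change 0.035.

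**Figure D3:**
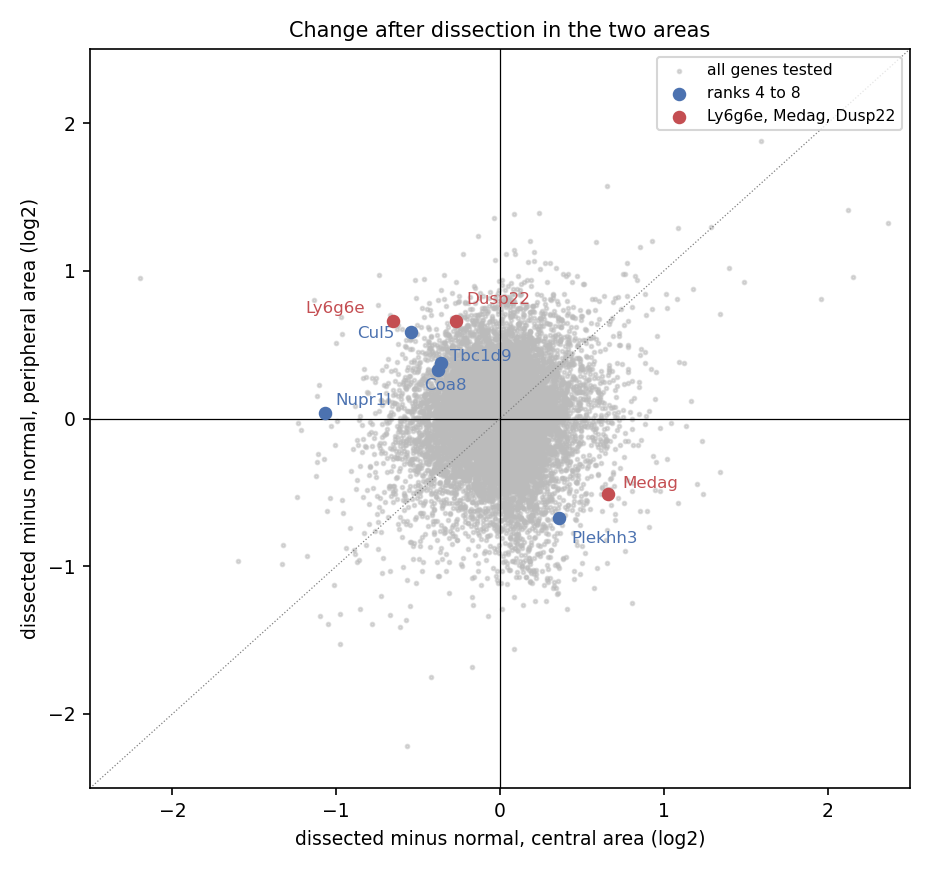
Change after dissection (log2, dissected minus normal) in the central area against that in the peripheral area for 14664 genes (grey), with Ly6g6e, Medag and Dusp22 in red, the genes of ranks 4 to 8 by p-value in blue, and a dotted line where both changes are equal. The red points lie in the quadrants of opposite sign, at (-0.66, 0.66), (0.66, -0.51) and (-0.27, 0.66), beside blue ones.

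Comparing arrays of the same slide keeps the slide constant. The central change of Medag was above 0 on 5 of 5 slides (0.27 to 1.32), and its peripheral change was below 0 on 3 of 3 slides that held both peripheral groups (-0.60 to -0.22). The central change of Ly6g6e was below 0 on 4 of 5 slides and 0.13 on slide 2, and its peripheral change was above 0 on 3 of 3 (0.44 to 0.67). For Dusp22 the central change was below 0 on 4 of 5 slides and 0.48 on slide 2, and the peripheral change was above 0 on 3 of 3 (0.41 to 0.72). On the 3 slides with all groups the difference of changes kept its sign, from -1.40 to -0.32 for Ly6g6e, 0.66 to 1.00 for Medag and -0.95 to -0.24 for Dusp22. The genes were chosen on these same arrays, so the kept sign is a description.

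Slide 2 held dissected central 2, the array with the highest Ly6g6e and Dusp22 and the lowest Medag of its group. It was one of the 4 arrays with few probes above background. Its C cell genes, which mark the central area, had a mean log2 ratio of -1.29 over 11 genes. This mean was 0.029 to 1.12 on the other dissected central arrays and 0.65 to 1.59 on the normal central arrays. On the normal peripheral arrays, whose range holds -1.29, it was -1.80 to -0.98, and on the dissected peripheral arrays -2.55 to -2.14. The part of the C cell genes in the values of dissected central 2 was not tested. Without it the differences of changes were -1.45 (Ly6g6e), 1.26 (Medag) and -1.03 (Dusp22), and without all 4 weak arrays -1.50, 1.43 and -1.09, each larger in size than with all arrays.

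**Figure D4:**
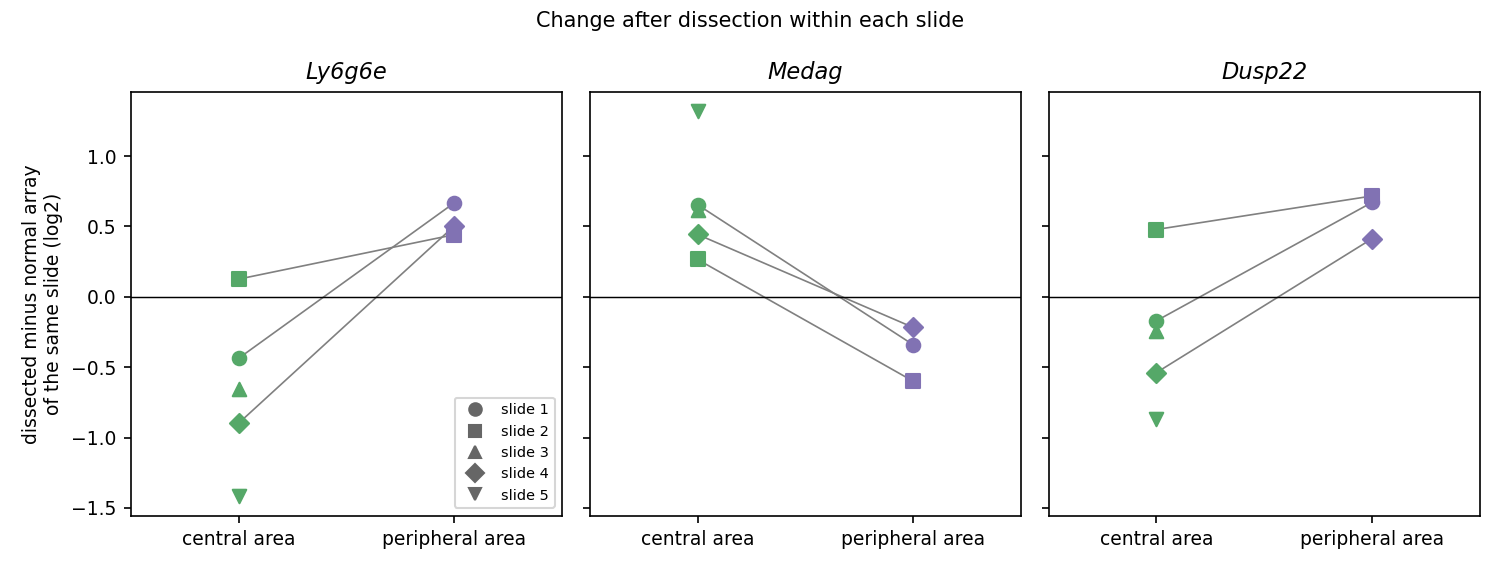
Dissected minus normal log2 ratio on arrays of the same slide, in the central area (green, 5 slides) and the peripheral area (purple, 3 slides), with lines joining the areas of a slide. For Medag all central points are above 0 (0.27 to 1.32) and all peripheral points below; for Ly6g6e and Dusp22 slide 2 (squares) is the only slide with a central point above 0.

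The differences were in the tissue channel. From Cy5 alone the difference of changes was -1.32 for Ly6g6e, 1.11 for Medag and -1.39 for Dusp22, and from Cy3, the common reference, it was 0.04, -0.20 and -0.11. The other probes gave 0.10 (SE 0.094, 95% interval -0.097 to 0.30) for Ly6g6e, 0.18 (SE 0.23, -0.31 to 0.67) for Medag and -0.063 (SE 0.13, -0.34 to 0.21) for Dusp22. For Medag the other probe had a central change of -0.012 and a peripheral change of -0.19, and its difference was above 0 on 1 of 3 slides and below 0 on 2. These probes were well above background in Cy5 on 0, 4 and 0 of 18 arrays, so for Ly6g6e and Dusp22 no comparison of the probes could be made.

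Across arrays, Ly6g6e and Dusp22 varied together. Over 18 arrays the Pearson correlation of their levels was 0.84 (Spearman's rho 0.87), and 0.72 (rho 0.70) after the group means were removed, or 0.54 without the 2 arrays farthest from the median of Ly6g6e. Ly6g6e and Medag had -0.74, then -0.56 within groups and -0.17 without those 2 arrays, so most of the within-group relation rested on them. Medag and Dusp22 had -0.60, -0.51 and -0.41. Arrays share a slide and a common reference, and the genes were chosen for like or opposite group patterns, so no p is given.

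Of 14494 genes compared, the one most like Ly6g6e over the 18 arrays was Dusp22, and the one most like Dusp22 was Ly6g6e. Next for Ly6g6e came AK083897 (r = 0.77) and Zcchc10 (0.76), and the most opposite was 1700025G04Rik (-0.75). For Dusp22 they were Suv39h1 (0.77), a histone H3 lysine methyltransferase, and Ddit4l (0.76), an inhibitor of mTOR signalling, and the most opposite was Itpka (-0.72), an inositol trisphosphate kinase. Medag was most like BB429249 (0.83), Adam23 (0.80), a cell adhesion protein, and Mme (0.75), a membrane peptidase, and most opposite to Zbtb40 (-0.82). Like Medag, its 3 nearest genes were dim, well above background on 6, 3 and 5 of 18 arrays. These correlations include the group means, on which the 3 genes were chosen, so the ranks are a description. With the group means removed, r with Ly6g6e was 0.72 for Dusp22 and 0.71 for Zcchc10.

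No measured relative of Ly6g6e passed the threshold. Of 38 Ly6 and uPAR family genes 23 were measured, and 0 passed in either area or in the difference (limma, adjusted p of 0.79 or above in the difference). Their median difference was -0.026, against -0.018 over all genes, and 2 of 23 had an unadjusted p under 0.05, which 5.82% of all genes had. These were Gpihbp1, which carries lipoprotein lipase across capillaries, at 0.99 (SE 0.41), and Lypd6b at -0.88 (SE 0.40). The changes of Lypd6b were -0.20 in the central and 0.68 in the peripheral area, the signs of Ly6g6e.

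The genes around Ly6g6e on chromosome 17 also lay nearer 0. Ly6g6d, the adjacent family member, had -0.26 (SE 0.17), Ly6g5c 0.0091 (SE 0.14) and Ly6g5b 0.31 (SE 0.25). Ly6g6c was below the filter on dim probes, and no probe was named Ly6g6f. Of 26 genes of the class III region 13 were measured, with a median of -0.17. An unadjusted p under 0.05 was found for 1 of the 13, against 5.82% of all genes. This was Bag6, a chaperone gene, at 0.56 (SE 0.27). Ltb, a lymphotoxin subunit, had -0.42 (SE 0.24), and 3 of the 13 had opposite signs in the areas (51.0% of all genes had), 2 of them the signs of Ly6g6e.

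For Medag, the regulators of fat cell differentiation gave no call. Of 29 genes 23 were measured, with a median difference of -0.048, and 14 of the 23 had opposite signs in the areas, against 51.0% of all genes, 6 with the signs of Medag and 8 with the reverse. Cebpb, an early transcription factor of adipogenesis, had 0.76 (SE 0.30) and Rxra, the nuclear receptor partner of Pparg, 0.73 (SE 0.28), the 2 of 23 genes of this list with an unadjusted p under 0.05, against 5.82% of all genes (limma adjusted p = 0.79 for both). The changes of Cebpb were 0.64 in the central and -0.12 in the peripheral area, and those of Rxra 0.31 and -0.42. The master regulators Pparg, at -0.41 (SE 0.42), and Cebpa, at 0.33 (SE 0.18), did not have the same sign.

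Marker genes of fat cells were present in every group and varied widely between arrays. Of 11 such genes 10 were measured, Lep being dim, with a median difference of 0.34, against -0.018 over all genes. Their smallest limma adjusted p in the difference was 0.848. Over the mean of kept probes 47.8% of all genes had a difference above 0, and in the main fit 8 of these 10 did. Their summed Cy5 intensity was 10594 to 37658 on normal central, 10458 to 34013 on normal peripheral, 16810 to 30928 on dissected central and 6576 to 56392 on dissected peripheral arrays. The 2 brightest, Fabp4 and Cfd, had differences of 0.10 (SE 0.67) and 1.19 (SE 1.11). The part of fat cells in the values of Medag was not tested.

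No other dual-specificity phosphatase passed the threshold in either area or in the difference. Of 26 dual-specificity phosphatase genes 20 were measured, with a median difference of 0.054. Of the 20, 0 had an unadjusted p under 0.05, against 5.82% of all genes. Dusp6, which acts on the kinases ERK1 and ERK2, came nearest in size at -0.90 (SE 0.43), from changes of -0.45 in the central and 0.45 in the peripheral area, and Dusp11, an RNA phosphatase, had 0.29 (SE 0.21). The standard error of Dusp6 was larger than that of Dusp22, and its limma adjusted p was 0.79.

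In the JNK pathway 25 of 27 genes were measured, with a median difference of -0.046. An unadjusted p under 0.05 was found for 2 of the 25, near the 5.82% of all genes. These were Map2k4, which phosphorylates JNK, at -0.87 (SE 0.30) and Map2k7, which does so too, at -0.45 (SE 0.17). Their central and peripheral changes were -0.36 and 0.51 for Map2k4 and -0.28 and 0.17 for Map2k7. Neither passed the threshold (limma adjusted p = 0.79 for both), and Map2k7 was well above background on 4 of 18 arrays. The JNK genes themselves had 0.41 (SE 0.36) for Mapk8, -0.12 (SE 0.13) for Mapk9 and -0.028 (SE 0.37) for Mapk10. Of the 25 genes 10 had opposite signs in the areas, against 51.0% of all genes, 5 with the signs of Dusp22 and 5 with the reverse.

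**Figure D5:**
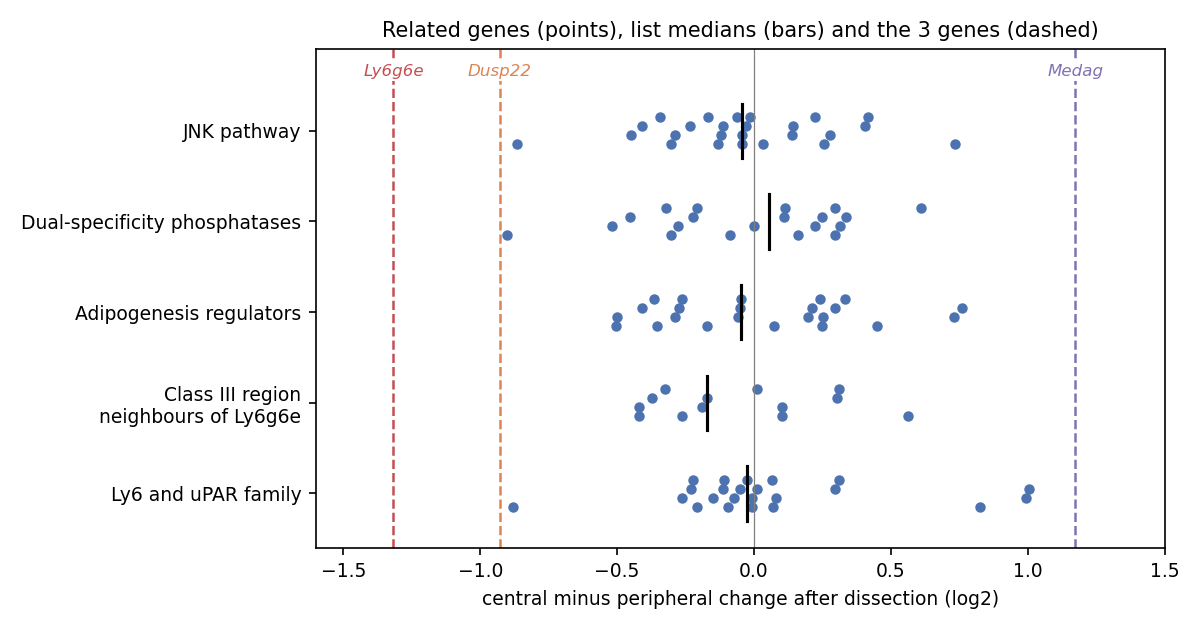
Central minus peripheral change after dissection (log2) of the measured genes of 5 lists (points, spread vertically to separate them) with each list's median (bar); dashed lines mark Ly6g6e (-1.32), Dusp22 (-0.93) and Medag (1.17). The medians lie between -0.17 and 0.054, and no listed gene reaches the line of Ly6g6e or that of Medag.

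The nearest measured genes of Medag and Dusp22 on the genome, in the order of a RefSeq table, were chosen after values were known. Around Medag, Uspl1, Alox5ap, Tex26 and Hsph1 had differences of -0.0095, 0.32, -0.046 and -0.15. Around Dusp22, Agtr1a, Uqcrfs1, Exoc2 and Foxq1 had -0.093, -0.43, -0.12 and 0.33. None passed the threshold (limma adjusted p of 0.79 or above).

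Further marker lists are given for their values alone. Among thyrocyte genes 11 of 13 were measured (Slc5a5 and Foxe1 were dim), with a median difference of -0.24, against -0.018 over all genes. Of the 11, 9 had a difference below 0 and 2 above, while over the mean of kept probes 47.8% of all genes were above 0. Their smallest limma adjusted p in the difference was 0.79. Thyroglobulin had -0.50 (SE 0.48) and thyroid peroxidase 0.49 (SE 0.33). Summed thyrocyte Cy5 intensity was 317935 to 498943 on normal central, 374821 to 447909 on normal peripheral, 288052 to 436033 on dissected central and 339662 to 496586 on dissected peripheral arrays. Of 6 airway epithelium genes 4 were measured, with differences of -3.15 (Bpifa1, SE 1.74) to 0.34 (Tekt1) and a median of -1.29, and their summed Cy5 intensity was 4967 to 24349, 3293 to 18760, 2992 to 13039 and 2753 to 15751 in the same order of groups. All 5 endothelial genes were measured, with a median of 0.11 and a summed Cy5 intensity of 8881 to 12451, 5003 to 12873, 7439 to 9455 and 5119 to 11103. Among them Tek, an endothelial receptor kinase, had a difference of 1.40 (SE 0.60), from changes of 0.65 in the central and -0.75 in the peripheral area. Of 64 measured marker genes only Tek had an unadjusted p under 0.05 for the difference (limma adjusted p = 0.79), against 5.82% of all genes. The summed ranges overlapped between all groups for the 3 lists, and the part of these cells in the 3 genes was not tested.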

How the data were processed

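Members and gene lists were chosen with earlier results of these data known. Per the file headers, the authors' scanner files hold Cy5 and Cy3 spot intensity and background intensity from Agilent Feature Extraction 9.5.1.1 (8.5.1.1 per the submitters' processing notes), and the log10 ratio of processed signals. The authors also deposited a table of linear ratios without stated processing. Its 40934 probes matched the scanner files, and its columns, with medians of 0.871 to 1.064, followed the Cy5 over Cy3 ratio centred per probe (correlations 0.972 to 0.999), so direction and linear scale were read from the values and the earlier steps are unknown.

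Here, intensities deposited by the authors were corrected with normexp (offset 50) and loess-normalized within arrays to a log2 ratio (limma 3.58.1, R 4.3.3). Spots marked non-uniform were left out and saturated spots kept. Kept probes were those with Cy5 well above background on 3 or more arrays (19082 of 41174). The brightest kept probe stood for its gene. Probes were named by accession (22951), current symbol (6659) or older symbol (3109) through a RefSeq table of GRCm38.p6, and 8455 kept the files' name. All 4 group means were fitted in one limma model over 18 arrays, with Benjamini-Hochberg adjustment over 14664 genes and a threshold of 0.05. The procedure was tested on simulated data.

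Genes are named by rule: the 3 genes, those most and least correlated with each, the next 5 by p-value, any listed gene past the threshold in the central change, the peripheral change or their difference, the 2 genes of each of the 5 pathway lists with the smallest p-values in the difference, and relatives, JNK genes and markers fixed by name. Genome neighbours, Tek, Bpifa1, Tekt1 and the dim marker genes, and genes called under an alternative fall outside it and were chosen after their values were seen. The number of arrays limits the precision. Alternatives changed background correction, normalization, the channel, the filter, the probe rule, blocks, scan day and single arrays.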

Additional observations from a re-analysis of the deposited data

Results flagged for a closer look

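On dissected peripheral 3 the log2 ratio of Ly6g6e was 0.574, far from the other 4 arrays of its group (-0.052 to 0.12). This was the only outlying array in the 9 groups of 5 arrays tested, and chance gives about 1 in 20 groups. Without it the difference of changes of Ly6g6e was -1.21.

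For the main probe of Medag, the central change was above 0 on 5 of 5 slides. Its peripheral change was below 0 on 3 of 3 slides that held both peripheral groups, with a difference of 1.17 in the fit over all arrays. This probe was well above background on 8 of 18 arrays. The other probe had a central change above 0 on 2 of 5 slides and a difference above 0 on 1 of 3. Medag was chosen on the difference of its main probe, so that difference was not tested.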

How the results depend on the processing

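The difference of changes kept its sign for Ly6g6e, Medag and Dusp22 in 89 of 89 values under 30 alternatives. It moved by less than the within-group SD in 80 and by more in 9. These genes were chosen for a large difference on the same arrays, so the kept sign is a description and not a test. Of the 30 alternatives 18 left out a single array and kept all the others. No alternative used the other probes alone. For Medag the difference of changes was 4.68 with processed signals, 4.56 in the authors' deposited value table, 0.68 over the mean of kept probes and 0.85 on scan day 1 alone. Scan day 1 held a single normal peripheral array, normal peripheral 3, where the Medag spot was not well above background. For Dusp22 the difference was -2.21 with processed signals, -2.25 in the authors' deposited value table, -1.39 with median centring and -1.39 from Cy5 alone. These values of Dusp22 include normal peripheral 1, where its spot was not well above background. For Ly6g6e the difference of changes was -2.06 with median centring. Leaving out single arrays gave -1.45 to -1.15 for Ly6g6e, 0.96 to 1.31 for Medag and -1.03 to -0.85 for Dusp22. Arrays with the same replicate number had deviations from their group means correlated above 0.1 in 9 of 24 pairs (median 0.068). The count was 10 of 24 for arrays of the same slide (median 0.085) and 6 of 96 for different slides (median -0.018). Arrays of the same slide were thus somewhat more alike. Replicate number and slide agreed except for normal peripheral 3, and the main fit had no term for either. With the replicate number as a block, the values were -1.34, 1.21 and -0.94, and no call changed under it or under a slide block. Medag has no value under the filter of at least 9 arrays.

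With limma, 0 genes passed the threshold for the central change, the peripheral change or the difference between the areas. Under median centring the limma count was 4 for the difference between the areas and 5 for the peripheral change. The 4 hold Trp53inp1, Agfg1 and Apool (limma adjusted p = 0.0433 each). They also hold Ly6g6e, which was chosen on this contrast, so its place in the count is a description and not a test result. Ccne1 alone passed for the peripheral change, 1 gene each with processed signals and in the authors' deposited value table. Leaving out single arrays gave 0 to 1 gene for the peripheral change (Slc4a5, without normal peripheral 3) and 0 to 1 for the central change (Mcpt4 without dissected central 2, Nupr1l without dissected central 3). The cause of these differences was not tested. Medag was not well above background on 10 of 18 arrays.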
